A study of Mus musculus with 16 samples.

Results

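The genes described here are 7 receptors and peptides of itch-sensing neurons: the cytokine receptor genes *Il31ra* and *Osmr*, the peptide genes *Nppb* and *Sst*, and the G protein-coupled receptor genes *Cysltr2*, *Hrh1* and *Lpar3*. They were chosen by symbol, as genes of pruriceptors outside the Mrgpr family, from the 22609 gene symbols that were counted. All 7 were present in the count tables. Their levels were compared between 4 kinds of sensory ganglia, with 4 libraries of sorted neurons per ganglion and 16 in all. The mice of every group were naive C57BL/6J males of 8 to 12 weeks, with the genotype Pirt cre/-; Rosa26 LSL-tdTomato/+, so that Cre driven by the sensory neuron gene *Pirt* switches on the red protein TdTomato. The groups were defined by the ganglion taken. They were the trigeminal ganglion (TG), which serves the face and dura, and the nodose and jugular ganglia (NG/JG). For NG/JG the tissue label gives the nodose ganglion alone. The other groups were the dorsal root ganglia of leg and paw (L3–L5) or of gut (T10-L1). The methods say that the number of neurons per library depended on the type of ganglion. The paper also calls the numbers used for sequencing roughly alike. Ganglion and cell input therefore cannot be told apart here. Bright TdTomato+ cells went through a pair of sorting cycles before SMART-seq2 library preparation. Neither labels nor methods say that the 4 libraries of a ganglion came from separate animals, so the p-values measure the spread between these libraries, which may in part be technical.

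Itch is carried to the spinal cord and brainstem by small unmyelinated sensory neurons. One class of them, called NP3 in single-cell surveys of mouse DRG, makes the peptides natriuretic polypeptide B (*Nppb*) and somatostatin (*Sst*), and carries the interleukin 31 receptor, which is a dimer of IL-31RA and the oncostatin M receptor (*Osmr*). The same class carries *Cysltr2*, a receptor for cysteinyl leukotrienes made by immune cells. *Hrh1* encodes the histamine H1 receptor, and *Lpar3*, a receptor for lysophosphatidic acid, is best known in neurons of the neighbouring nonpeptidergic classes. None of the genes is restricted to neurons in the body, and *Osmr* is widely made by fibroblasts, glia and endothelial cells.

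Libraries had between 4735624 and 13333318 reads on genes (median 8332661), so that a floor of 3 reads corresponded to 0.225 to 0.633 CPM, a unit that scales each count by its library's reads on genes. Such floors cover counting error only, since reads were not tagged by molecule. The defining markers of sensory neurons were present in every library, and those of other cells were present as well. The 7 sensory neuron markers summed to 833 to 10315 CPM, the 5 satellite glia markers to 12011 to 62578 CPM and the 5 Schwann cell markers to 9450.1 to 64244 CPM. A pair of libraries stood apart. TG library 1 had the lowest sum of neuron markers (833 CPM) and differed from the other TG libraries by a chi-square of 214 to 233 per gene, against 29.9 to 33.3 among those 3. L3-L5 DRG library 4 was the shallowest, had 66.6% of its uniquely aligned reads outside annotated genes, and had 1176 CPM on neuron markers. In sorted pools, fewer cells of a type and less RNA per cell cannot be told apart.

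Of the 7 genes, *Osmr* and *Lpar3* were the abundant ones, and the other 5 were sparse. Per length of exon, the mean over the 8 DRG libraries was 27.9 RPKM for *Lpar3* and 27.7 RPKM for *Osmr*, while *Il31ra* had 1.98, *Nppb* 1.80, *Cysltr2* 1.59, *Sst* 1.51 and *Hrh1* 1.27 RPKM. *Osmr* exceeded 3 reads in 16 of 16 libraries and *Lpar3* in 15. *Il31ra* did so in 9 libraries, *Hrh1* in 7, *Cysltr2* in 6, *Nppb* in 5 and *Sst* in 4. Each TG library had 3 of the 7 above 3 reads and the NG/JG libraries 1 to 3, whereas the L3–L5 DRG libraries had 3 to 7 and the T10-L1 DRG libraries 3 to 6. At the looser rule of any read, the TG libraries had 3 to 5 of the 7 and the NG/JG libraries 2 to 4. The L3–L5 DRG libraries then had 4 to 7 and the T10-L1 DRG libraries 5 to 7. Over all genes, the number with any read was 11527 to 15354 in TG and 10132 to 13029 in NG/JG. It was 13617 to 18571 in L3–L5 DRG libraries and 14237 to 16694 in those of T10-L1 DRG. The share of all genes above 3 reads was not counted. L3-L5 DRG library 1 was the only library with all 7 above 3 reads.

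**Figure D1:**
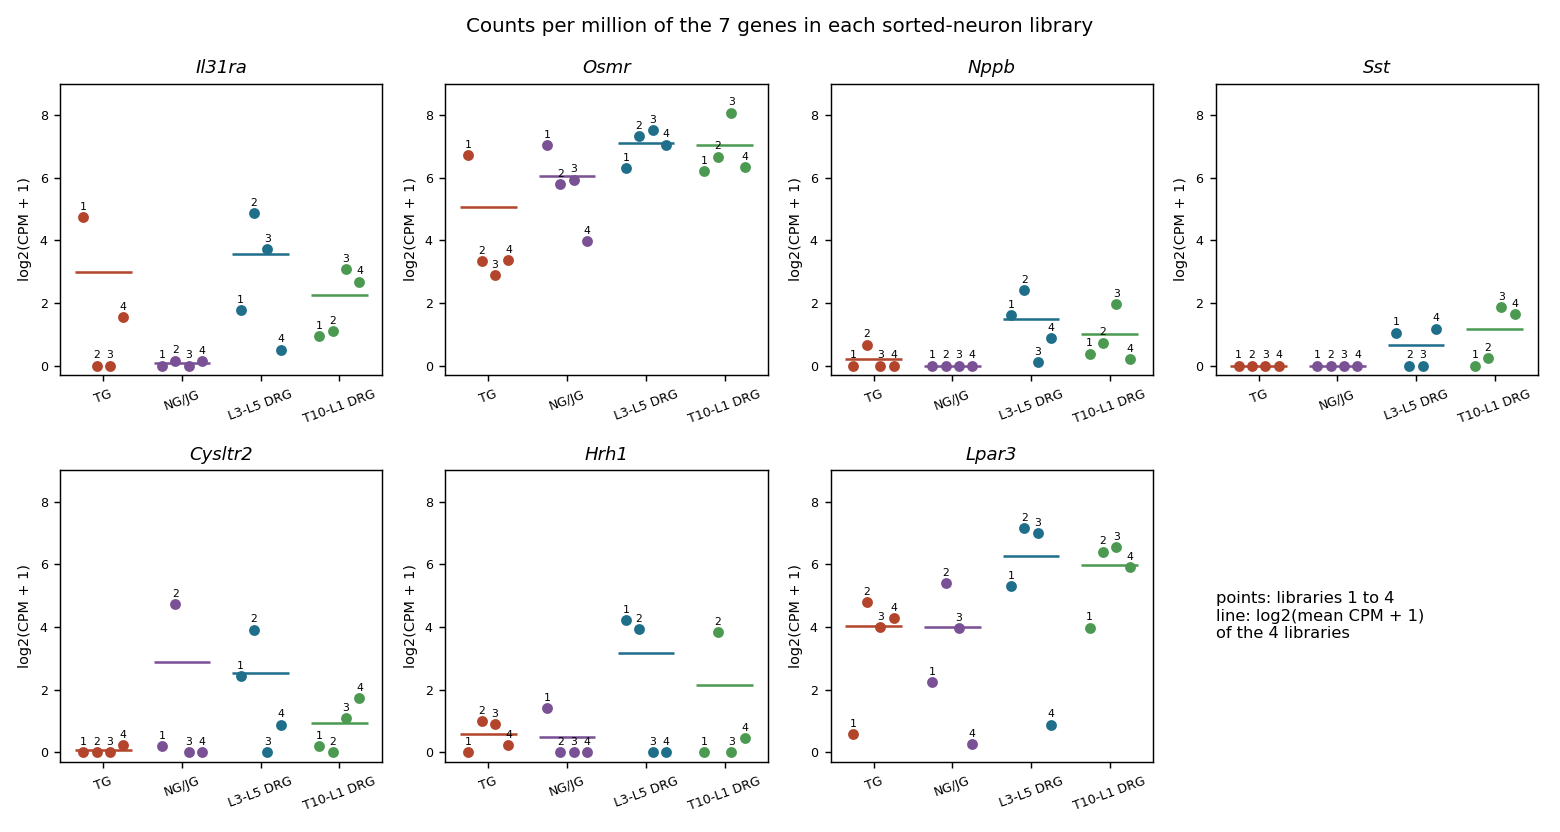
Level of each of the 7 genes in every library, as log2(CPM + 1), by ganglion; points are single libraries marked with their number and lines are log2 of the mean CPM + 1 of 4 libraries. *Sst* has no read in the 8 TG and NG/JG libraries, *Il31ra* is at or below 0.114 CPM in NG/JG, and TG library 1 lies above the other TG libraries for *Osmr* (105 CPM) and *Il31ra* (25.6 CPM) and below them for *Lpar3* (0.508 CPM).

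*Osmr* encodes the signalling subunit shared by the IL-31 and oncostatin M receptors. The gene lies on the minus strand at chr15:6763577-6824313 of NCBIM37 (the assembly also called mm9), with 18 exons after merging its transcripts and no exonic base shared with another gene. *Osmr* had 105, 9.05, 6.36 and 9.31 CPM in TG libraries 1 to 4, and 130, 54.3, 60.1 and 14.6 CPM in those of NG/JG. It had 77.8, 159, 182 and 132 CPM in the libraries of L3–L5 DRG, and 72.3, 101, 269 and 79.8 CPM in those of T10-L1 DRG. The DRG groups therefore overlapped, and NG/JG reached from well below them into their range. In TG, 3 libraries lay lower than all other 13 libraries, while TG library 1 lay among the DRG values. Means were 138 ± 44.9 CPM for L3–L5 and 130 ± 93.4 CPM for T10-L1 DRG, 64.8 ± 48.0 CPM in NG/JG and 32.5 ± 48.5 CPM in TG (SD, n = 4 each), and each neighbouring pair in this order overlapped.

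With all libraries, *Osmr* did not pass the test in any comparison. The log2 fold change of TG over L3–L5 DRG was -1.87 (SE 0.82), with an unadjusted p of 0.0444 and an adjusted p of 0.258 (edgeR's quasi-likelihood test with Benjamini-Hochberg adjustment). For TG over T10-L1 DRG it was -1.78 (SE 0.87, edgeR adjusted p = 0.268). TG library 1 decided these values. Without it, *Osmr* was lower in TG by a log2 fold change of -3.63 (SE 0.42, edgeR adjusted p = 0.00434) against L3–L5 DRG and of -3.57 (SE 0.54, edgeR adjusted p = 0.00139) against T10-L1 DRG, and over the 4 ganglia its adjusted p was 0.0188. In those fits 15.2%, 26.7% and 6.98% of all tested genes had an adjusted p under 0.05, so such a call was common, and *Osmr* was the 1 gene of the 7 that had it. TG library 1 also held the highest *Osmr* value of TG, so leaving it out lowers the TG mean and narrows its spread by construction. These p-values are therefore no independent evidence. Leaving out any other single library gave edgeR adjusted p-values of 0.276 to 0.492 against L3–L5 DRG and 0.288 to 0.596 against T10-L1 DRG. Against NG/JG the fold change without TG library 1 was -2.70 (SE 0.95, edgeR adjusted p = 0.167), where 2.58% of all tested genes were called. NG/JG itself lay below L3–L5 DRG by a log2 fold change of -1.0 (SE 0.62) and below T10-L1 DRG by -0.97 (SE 0.67), with edgeR adjusted p-values of 0.999 and 1. Between the DRG groups the value was 0.04 (SE 0.48, L3–L5 over T10-L1), and leaving out single libraries turned its sign.

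The summed satellite glia markers were high in the TG libraries in which *Osmr* was low. Sums for other cells overlapped between TG and DRG. The satellite glia markers summed to 53152, 62578 and 59999 CPM in TG libraries 2 to 4, to 22403 CPM in TG library 1, and to between 12011 and 28917 CPM in the 8 DRG libraries; all 5 of these markers exceeded 3 reads in every library. Most of these sums was *Apoe*, a lipid carrier made by glia and macrophages, with a mean of 46208 CPM in TG and 19761 CPM in T10-L1 DRG. The glial matrix gene *Sparcl1* went the other way, with 746 to 1051 CPM in TG and 1368 to 1968 CPM in T10-L1 DRG. *Kcnj10*, the potassium channel of these cells, had means of 141 and 159 CPM. In the fit of this pair, 4 of the 5 satellite glia markers were higher in TG and 1 was lower (median log2 fold change 0.69). The 6 fibroblast markers summed to 4552 to 7247 CPM in TG and 542 to 12739.7 CPM in the DRG libraries, and the 6 endothelial markers to 60.2 to 447 CPM and 40.4 to 987 CPM. These last sums overlapped between TG and both DRG groups, as did those of Schwann cell, vessel wall (mural) cell and macrophage markers. Relative to reads on the 7 sensory neuron markers, *Osmr* still was lower in TG libraries 2 to 4, at 5.0, 1.96 and 3.73 reads per 1000 marker reads, than in any DRG library, where the lowest value was 17.6. TG library 1 had 126 on that scale. The fits scaled in this way, with all 8 libraries of each pair, gave log2 fold changes of -0.31 (SE 1.2) and -0.47 (SE 1.11) for TG over L3–L5 and T10-L1 DRG, with edgeR adjusted p-values of 0.962 and 0.874. The part of the other cells in the *Osmr* level was not tested.

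*Il31ra* encodes the subunit that binds interleukin 31, and it lies on the minus strand at chr13:113313018-113370870 of NCBIM37. *Il31ra* had 25.6, 0, 0 and 1.93 CPM in the TG libraries, which means 202 reads in the first, 11 in the fourth and none in the others. In NG/JG it had 0, 0.114, 0 and 0.103 CPM, or 2 reads over the 4 libraries. It had 2.43, 28.2, 12.2 and 0.422 CPM in the libraries of L3–L5 DRG, and 0.917, 1.14, 7.48 and 5.40 CPM in those of T10-L1 DRG. Every DRG library thus lay above every NG/JG library, but the gap was between 1 read in NG/JG and 2 reads in L3-L5 DRG library 4, both under the floor of 3 reads. Without that library the lowest DRG value was 0.917 CPM. The DRG groups overlapped, and TG spanned the whole range through its first library, which held 94.8% of the reads of that ganglion on *Il31ra*.

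With 2 reads in NG/JG the size of this difference is poorly fixed. From the summed reads, *Il31ra* in L3–L5 DRG was 203 times its NG/JG level (95% interval 55.8 to 1679, exact binomial, counting error only), and in T10-L1 DRG it was 70.0 times that level (19.1 to 582). Without L3-L5 DRG library 2, which had the most reads, the first ratio was 106 (28.9 to 882). The spread between libraries is not part of these intervals. Libraries without overlap, higher in the DRG, were found for 5.74% and 6.41% of the genes tested in these comparisons. *Il31ra* had too few reads to be among them. Where it was tested, TG over L3–L5 DRG gave a log2 fold change of -0.50 (SE 1.79), TG over T10-L1 DRG 1.04 (SE 1.70) and the DRG groups, L3–L5 over T10-L1, 1.49 (SE 1.24), with edgeR adjusted p-values of 0.923, 0.776 and 0.841. Without TG library 1 the value against T10-L1 DRG turned to -2.16 (SE 1.66). In the test for any difference among the 4 ganglia, *Il31ra* had an unadjusted p of 0.0422 and an adjusted p of 0.264 (edgeR).

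The peptide genes were the sparsest. *Nppb* encodes the B-type natriuretic polypeptide, which pruriceptors release onto spinal neurons that carry its receptor. It lies on the plus strand at chr4:147359897-147361314 of NCBIM37. *Sst* encodes somatostatin, which inhibits neurons that carry its receptors, and lies on the minus strand at chr16:23889667-23890930. The reads counted for each gene fall on a short transcript, whose mature peptide is encoded at the end of the reading frame. These stretches are shown because they are what the reads would have to cover for the peptide itself to be seen, with the cysteine codons that form the ring of each peptide in capitals. The *Sst* stretch is the last 14 codons, read from the minus strand of chr16:23889818-23889859, and the *Nppb* stretch is the last 45 codons, from the plus strand of chr4:147360507-147361084 with the intron between its 2 exons left out; both come from the GENCODE release 1 transcripts on NCBIM37.
Sst: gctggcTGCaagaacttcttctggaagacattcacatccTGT
Nppb: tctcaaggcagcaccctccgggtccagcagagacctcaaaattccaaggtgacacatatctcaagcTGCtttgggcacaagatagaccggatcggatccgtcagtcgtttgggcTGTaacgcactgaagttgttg
The files give counts per gene, so the position of a read within these transcripts was not analysed here.

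*Nppb* had 2.04, 4.27, 0.0824 and 0.845 CPM in the libraries of L3–L5 DRG and 0.306, 0.666, 2.88 and 0.150 CPM in those of T10-L1 DRG, which are between 1 and 43 reads per library. TG had 3 reads in total, all in library 2, and NG/JG had none. *Nppb* therefore had at least 1 read in all 8 DRG libraries and none in NG/JG. In 3 of the DRG libraries (L3–L5 number 3 and T10-L1 numbers 1 and 4) these were 1 or 2 reads, under the floor, so the separation from NG/JG was not resolved at this depth, while the DRG groups overlapped with each other and with TG. Against NG/JG, where a fold is a lower bound set with 3 reads per library, its mean CPM was at least 4.88-fold higher in neurons of L3–L5 DRG and at least 2.70-fold higher in those of T10-L1 DRG. The bounds rested on single libraries: without L3-L5 DRG library 2 the first was 2.67, and without T10-L1 DRG library 3, which had 35 of 46 reads, the second was 1.01. From the summed reads its level in L3–L5 DRG was 15.1 times that in TG (95% interval 4.96 to 75.1, exact binomial, counting error only), and 7.81 times without L3-L5 DRG library 2 (2.39 to 40.3). No comparison had enough *Nppb* reads for the test.

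*Sst* had no read in any of the 8 TG and NG/JG libraries, which allows up to 0.310 to 0.590 CPM per library. Its DRG values were 1.07, 0, 0 and 1.27 CPM for L3–L5 and 0, 0.190, 2.63 and 2.10 CPM for T10-L1. Reads were thus found in 5 of 8 DRG libraries, and the libraries of every pair of ganglia overlapped at 0. Group means in the DRG were 0.584 ± 0.679 and 1.23 ± 1.33 CPM (SD, n = 4 each), with a log2 fold change of -1.24 for L3–L5 over T10-L1 (SE 1.78, edgeR adjusted p = 0.903). In T10-L1 DRG the mean CPM of *Sst* was at least 2.44-fold higher than in TG and at least 3.32-fold higher than in NG/JG. Without T10-L1 DRG library 3 these bounds were 1.52 and 2.06. The spread between libraries is not part of them. T10-L1 DRG libraries 1 and 2 had 0 and 2 reads on *Sst*, under the floor of 3 reads.

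*Cysltr2* (minus strand, chr14:73428935-73448921 of NCBIM37) had the highest group mean in NG/JG, but 1 library made it. The CPM values were 0.139, 25.4, 0 and 0 in NG/JG, so that 223 of 224 reads came from library 2. In the DRG they were 4.38, 14.1, 0 and 0.845 for L3–L5 and 0.153, 0, 1.15 and 2.33 for T10-L1. TG had 1 read, in library 4. Libraries without a read occurred in every ganglion, and no pair of ganglia was separated. From the summed reads, 191 against 1, its L3–L5 DRG level was 126 times that in TG (95% interval 22.3 to 4985, exact binomial, counting error only). Library 2 had 142 of the 191 reads, and without it the ratio was 44.2 (7.56 to 1779.7). Its log2 fold change between the DRG groups, L3–L5 over T10-L1, was 2.30 (SE 1.81, edgeR adjusted p = 0.834).

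*Hrh1* (plus strand, chr6:114347930-114433290 of NCBIM37) was present at an appreciable level in 3 libraries. L3–L5 DRG had 17.5, 14.2, 0 and 0 CPM, and T10-L1 DRG had 0, 13.2, 0 and 0.375 CPM. TG had 0, 0.984, 0.859 and 0.176 CPM and NG/JG 1.67, 0, 0 and 0 CPM. Each DRG group thus held libraries above 13 CPM and libraries without a read, and each ganglion overlapped each other one. Only the test for any difference among the 4 ganglia had enough *Hrh1* reads, and it gave an edgeR adjusted p of 0.724.

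*Lpar3* (plus strand, chr3:145883925-145949178 of NCBIM37) was found in every library. It had 0.508, 27.0, 14.9 and 18.6 CPM in TG and 3.76, 41.2, 14.5 and 0.207 CPM in NG/JG. In the DRG it had 38.5, 142, 126 and 0.845 CPM for L3–L5 and 14.8, 83.7, 92.2 and 59.1 CPM for T10-L1. All groups overlapped, and TG, NG/JG and L3–L5 DRG each held 1 library at or below 0.845 CPM. The low libraries of TG and L3–L5 DRG were the same ones that had the fewest reads on sensory neuron markers in their ganglia. This did not hold in NG/JG. Its low library, number 4, had 2918 CPM on these markers, against 1300.0 CPM in NG/JG library 1. Per 1000 reads on these markers, *Lpar3* was still lowest in each of these low libraries. It had 0.610 reads in TG library 1, against 4.61 or more in the other TG libraries. L3-L5 DRG library 4 had 0.718, against 11.3 or more in the others of its ganglion. NG/JG library 4 had 0.0708, against 2.89 or more in the other NG/JG libraries. The cause of these low values was not tested. Means were 76.8 ± 68.0 CPM for L3–L5 and 62.5 ± 34.7 CPM for T10-L1 DRG, 15.3 ± 11 CPM in TG and 14.9 ± 18.5 CPM in NG/JG (SD, n = 4 each).

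The fitted differences of *Lpar3* between cranial ganglia and DRG did not pass the test. TG over L3–L5 DRG gave a log2 fold change of -1.92 (SE 1.25) and TG over T10-L1 DRG -1.61 (SE 0.93), with edgeR adjusted p-values of 0.465 and 0.361. NG/JG over L3–L5 DRG gave -2.31 (SE 1.5) and NG/JG over T10-L1 DRG -2.05 (SE 1.24), with edgeR adjusted p-values of 0.999 and 1. Leaving out L3-L5 DRG library 4 moved the first value to -2.58 (SE 0.98, edgeR adjusted p = 0.208) and the third to -2.72 (SE 1.33, edgeR adjusted p = 0.862), and leaving out TG library 1 moved the first to -1.51 (SE 1.12, edgeR adjusted p = 0.416). The signs of TG over NG/JG (0.35, SE 1.61) and of the DRG groups, L3–L5 over T10-L1, (0.29, SE 1.03) turned when single libraries were left out.

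**Figure D2:**
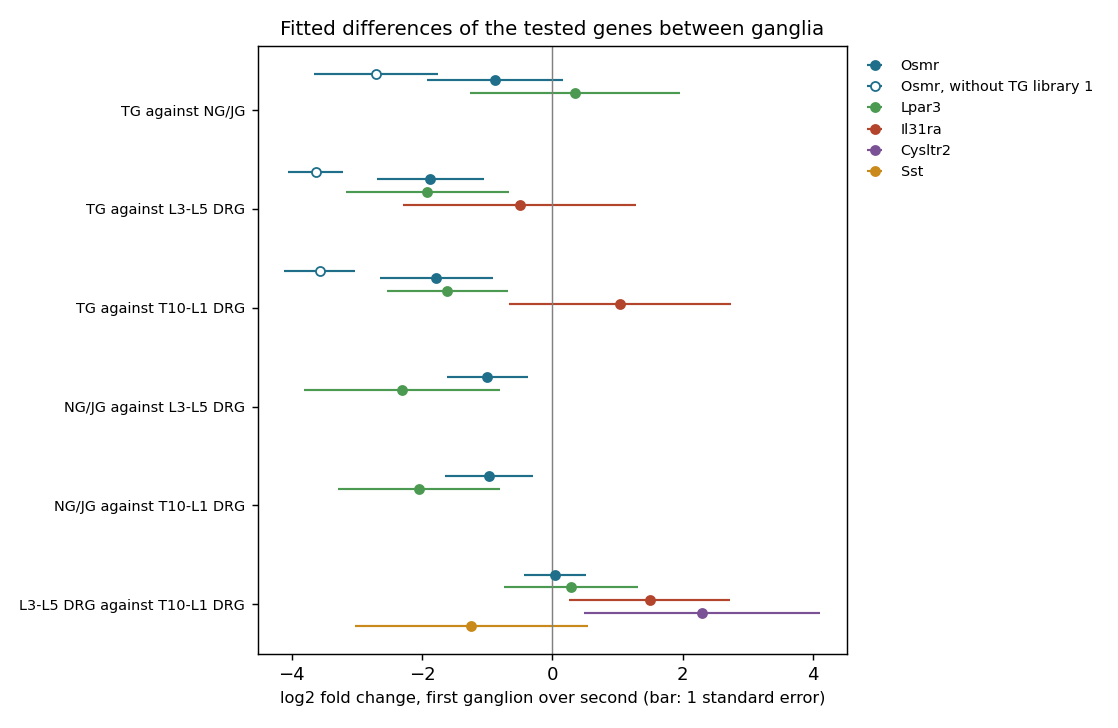
Fitted log2 fold change of each tested gene for the 6 pairs of ganglia, first ganglion over second, with bars of 1 standard error; the open points give *Osmr* without TG library 1. The open points for L3–L5 and T10-L1 DRG (-3.63 and -3.57) carry shorter bars than the filled ones (-1.87 and -1.78), and genes with too few reads in a pair have no point. The library left out has the highest *Osmr* value in TG.

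In each pair of ganglia, 2 to 5 of the 7 genes had enough reads to be tested, and the 5 were those of the comparison between the DRG groups. None had an adjusted p under 0.05 by edgeR, against 0.0510% of all genes tested between TG and NG/JG, 5.87% between TG and T10-L1 DRG, 0.0322% between NG/JG and T10-L1 DRG, and 0% in the other 3 pairs. At an unadjusted p under 0.05 the count was 1, *Osmr* in TG against L3–L5 DRG, where 18.2% of all genes passed. The lowest unadjusted p in the other pairs was 0.0656, that of *Osmr* in TG against T10-L1 DRG. Among the 5 genes tested over the 4 ganglia together, 0 had an adjusted p under 0.05 against 3.01% of all genes, and 1, *Il31ra*, had an unadjusted p under 0.05 against 17.5%. DESeq2 on the same libraries also called 0 of the 2 to 5 genes tested at an adjusted p under 0.05 in each of the 7 tests. Over all genes it called 1453 of 12900 in TG against L3–L5 DRG and 1947 of 12914 in TG against T10-L1 DRG. Over the 4 ganglia it called 1667 of 14236. For DESeq2 the share of all genes with an unadjusted p under 0.05 was not counted, so no count of the 7 genes at that threshold is given.

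Whether libraries of a ganglion that were high for one gene were also high for another was examined on deviations from the ganglion mean of log2(CPM + 1). *Il31ra* and *Osmr*, the partners of the IL-31 receptor, gave the highest of 21 coefficients. Pearson's r was 0.65 over 16 libraries (exact permutation p within ganglia = 0.0219, adjusted p = 0.461 over the 21 pairs) and Spearman's rho was 0.59 (exact permutation p = 0.0258, adjusted p = 0.542). It rested on a pair of libraries, since r fell to 0.31 without TG library 1 and L3-L5 DRG library 2 (exact permutation p = 0.256). Within TG r was 0.96, within L3–L5 DRG 0.56 and within T10-L1 DRG 0.65, but within NG/JG it was -0.69, where *Il31ra* had 2 reads. *Nppb* and *Sst*, the peptides assigned to the same neurons, had an r of 0.23 (exact permutation p = 0.587, adjusted p = 0.894). None of the 21 pairs had an adjusted p under 0.05, and 15 had an r above 0.

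The genes whose levels resembled each member most over the 16 libraries differed from member to member. *Lpar3* was most like *Grik1*, a kainate receptor subunit (Pearson's r of log2(CPM + 1) 0.93), *Prdm12*, a transcription factor of nociceptors (0.88), and *Acpp*, an acid phosphatase of nonpeptidergic neurons (0.88). *Osmr* was most like *Tm9sf2* (0.94), *Pja2* (0.92) and *Actr1a* (0.92), which had means of 448, 241 and 252 CPM. For the sparse genes the nearest were *Zdhhc23*, *Mmp25* and *5031414D18Rik* for *Il31ra* (0.89, 0.88 and 0.87), *Nhedc2*, *Zfp3* and *Tssk6* for *Cysltr2* (0.88, 0.83 and 0.81), and *Heatr7b2*, *2810422O20Rik* and *Thg1l* for *Hrh1* (0.81, 0.79 and 0.78). The libraries share their depth and cell makeup across genes, and the values describe these 16 libraries only.

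The pathways around the 7 genes were covered by 82 further genes in 5 lists, of which 66 had enough reads for the test over the 4 ganglia. By that test 5 passed at an adjusted p under 0.05 (edgeR), against 3.01% of all genes tested. They were 2 of 14 tested cytokine receptor partners (*Lifr* and *Stat3*), 1 of 17 amine, lipid and protease receptors (*S1pr3*), 1 of 14 transduction and channel genes (*Plcb3*), 1 of 14 peptides and peptide receptors (*Sstr4*) and 0 of 7 genes for ligands of the receptors. *Sstr4* had no read in TG and NG/JG, so it passed the filter on low counts only through the DRG libraries, where it was high. Its call is therefore not read as a result. The count of 5 rested on single libraries: it was 0 without TG library 2, 3 or 4 or without L3-L5 DRG library 2, and 9 without TG library 1. It was also 0 when libraries were scaled to the sensory neuron markers. The calls over all tested genes, 429 with all libraries, moved too. They were 33 to 36 without TG library 2, 3 or 4 and 237 without L3-L5 DRG library 2. With that scaling they were 14, and without TG library 1 they were 1035 (6.98%).

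**Figure D3:**
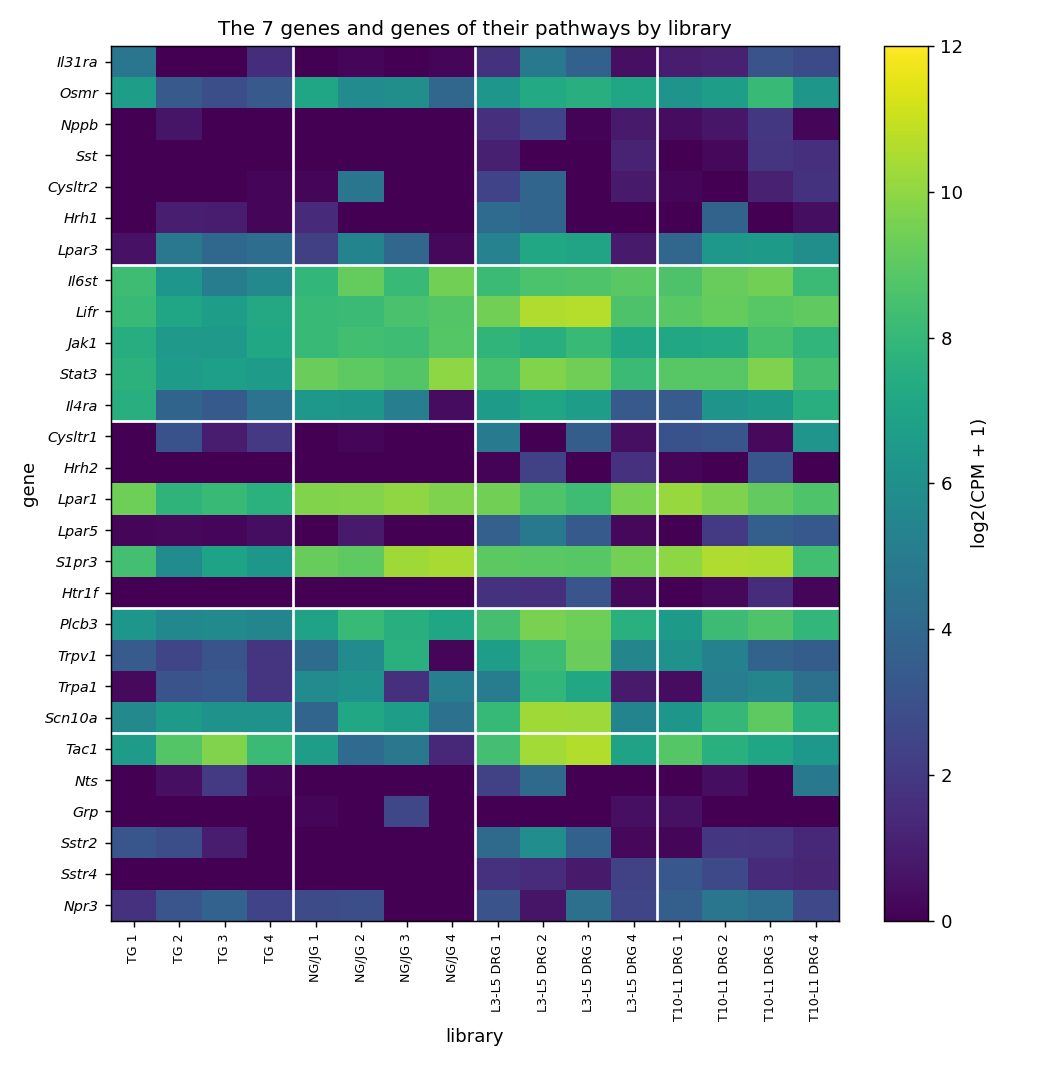
Levels of the 7 genes (top block) and of named genes of their pathways (lower blocks: cytokine receptor partners, other receptors, transduction and channel genes, peptides and their receptors) in the 16 libraries, with colour giving log2(CPM + 1). *Osmr*, *Il6st* and *Il4ra* are higher in TG library 1 than in TG libraries 2 to 4, and *Sstr4* has no read in TG and NG/JG.

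Besides IL-31RA, the partner of the *Osmr* product is gp130 (*Il6st*). The LIF receptor (*Lifr*) pairs with gp130 in a separate receptor. These receptors signal through the kinase JAK1 and the factor STAT3. TG over T10-L1 DRG was the pair in which genes of this list passed, all lower in TG. *Stat3* was lower by a log2 fold change of -1.72 (SE 0.35, edgeR adjusted p = 0.0285) and *Lifr* by -1.29 (SE 0.30, edgeR adjusted p = 0.0374). Neither overlapped between these groups, as was the case, with higher values in T10-L1 DRG, for 13.2% of the genes tested. These calls depended on the libraries and settings used. None of the 57 to 61 pathway genes tested in this pair passed with the replicate block or with scaling to sensory neuron markers. The same held without any 1 of TG libraries 2, 3 and 4 or T10-L1 DRG libraries 1, 2 and 3. In each of these fits only 0 or 1 of all tested genes passed. Without TG library 1, 17 of 60 pathway genes passed, beside 26.7% of all tested genes. Without that library *Stat3* had a fold change of -1.97 (SE 0.30, edgeR adjusted p = 0.00147) and *Lifr* of -1.55 (SE 0.22, edgeR adjusted p = 9.31e-04). The call of *Lifr* was lost also without T10-L1 DRG library 4 (edgeR adjusted p = 0.068) and in one fit of 16 libraries (edgeR adjusted p = 0.129). *Il6st* had 310, 79.3, 33.2 and 49.9 CPM in TG and between 290 and 699 CPM in T10-L1 DRG, with a fold change of -1.80 (SE 0.61, edgeR adjusted p = 0.114), or of -2.76 (SE 0.41, edgeR adjusted p = 0.00118) without TG library 1. As for *Osmr*, library 1 was the highest of TG for *Stat3*, *Lifr* and *Il6st*, so leaving it out lowers the TG mean by construction. In TG *Il6st* had the same split as *Osmr*, with library 1 above the others. *Il4ra*, a receptor subunit for interleukins 4 and 13, also did, with 185 CPM in TG library 1 and 13.6, 9.45 and 23.0 CPM in the others. *Jak1* had 84.9 to 178 CPM in TG and 145 to 366 CPM in T10-L1 DRG (log2 fold change -0.57, SE 0.38, edgeR adjusted p = 0.436).

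Of the other receptors for the same kinds of ligand, *S1pr3*, a sphingosine 1-phosphate receptor that takes part in itch and pain, was lower in TG than in T10-L1 DRG (log2 fold change -2.54, SE 0.60, edgeR adjusted p = 0.0385), although TG library 1 (340 CPM) overlapped with T10-L1 DRG library 4 (334 CPM). Without TG library 1, the highest of TG for *S1pr3*, the value was -3.21 (SE 0.51, edgeR adjusted p = 0.00173). The call was lost under the same alternatives as those of *Stat3*. *Lpar1* had 202 to 1139 CPM over the 16 libraries, whereas *Lpar5* reached 27.5 CPM in the DRG and stayed at or below 0.797 CPM in TG and NG/JG. *Cysltr1* had 1 read in NG/JG and ranged from 0 to 76.4 CPM over the other ganglia, and *Hrh2* had no read in TG and NG/JG and at most 8.14 CPM in the DRG. *Htr1f*, a serotonin receptor of the same NP3 class, likewise had no read in the 8 cranial libraries, and its DRG values lay between 0 and 7.83 CPM. *Plcb3*, the phospholipase through which such receptors act, was lower in TG than in T10-L1 DRG (-1.90, SE 0.43, edgeR adjusted p = 0.0368), with no overlap, as for 13.2% of the genes tested. Its value was -2.04 (SE 0.44, edgeR adjusted p = 0.0083) without TG library 1, again the highest of TG. Its call too was lost with the block, with neuron marker scaling and without any other single library of the pair.

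The channels that carry itch signals onward did not pass edgeR's test with all libraries. *Trpv1* had 2.63 to 9.90 CPM in TG and 43.5 to 614 CPM in L3–L5 DRG (log2 fold change -5.11, SE 0.86, edgeR adjusted p = 0.0829). DESeq2 called it (adjusted p = 1.82e-08), as edgeR did without TG library 1 (-5.32, SE 1.01, adjusted p = 0.011). *Trpa1* lay between 0.254 and 249 CPM over all libraries. *Scn10a*, the sodium channel of nociceptors, had 49.5 to 91.1 CPM in TG and 41.0 to 1266 CPM in L3–L5 DRG (-2.95, SE 0.87, edgeR adjusted p = 0.114, and 0.0973 without TG library 1), and DESeq2 gave an adjusted p of 0.00384.

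Among the peptides and peptide receptors, *Sstr4*, a somatostatin receptor, shared the absence of *Sst* from cranial libraries, with no read in TG and NG/JG and 0.824 to 8.56 CPM in the DRG. In T10-L1 DRG it was at least 8.42-fold higher than in TG and at least 11.4-fold higher than in NG/JG, or 5.55-fold and 7.54-fold without T10-L1 DRG library 1. *Sstr2* had 0 CPM in NG/JG and up to 57.3 CPM in L3–L5 DRG. *Npr3*, the clearance receptor for natriuretic polypeptides, had 0 to 25.4 CPM. *Nts*, another peptide of the NP3 class, exceeded 3.09 CPM only in L3–L5 DRG libraries 1 and 2 and T10-L1 DRG library 4, with 4.18, 16.6 and 27.7 CPM. *Grp* was at most 4.84 CPM. *Tac1*, the substance P precursor, had 1.65 to 105 CPM in NG/JG and 119 to 1566 CPM in L3–L5 DRG (log2 fold change -4.39, SE 1.19, edgeR adjusted p = 0.215), and only DESeq2 of the 2 tools called it (adjusted p = 0.00138).

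**Figure D4:**
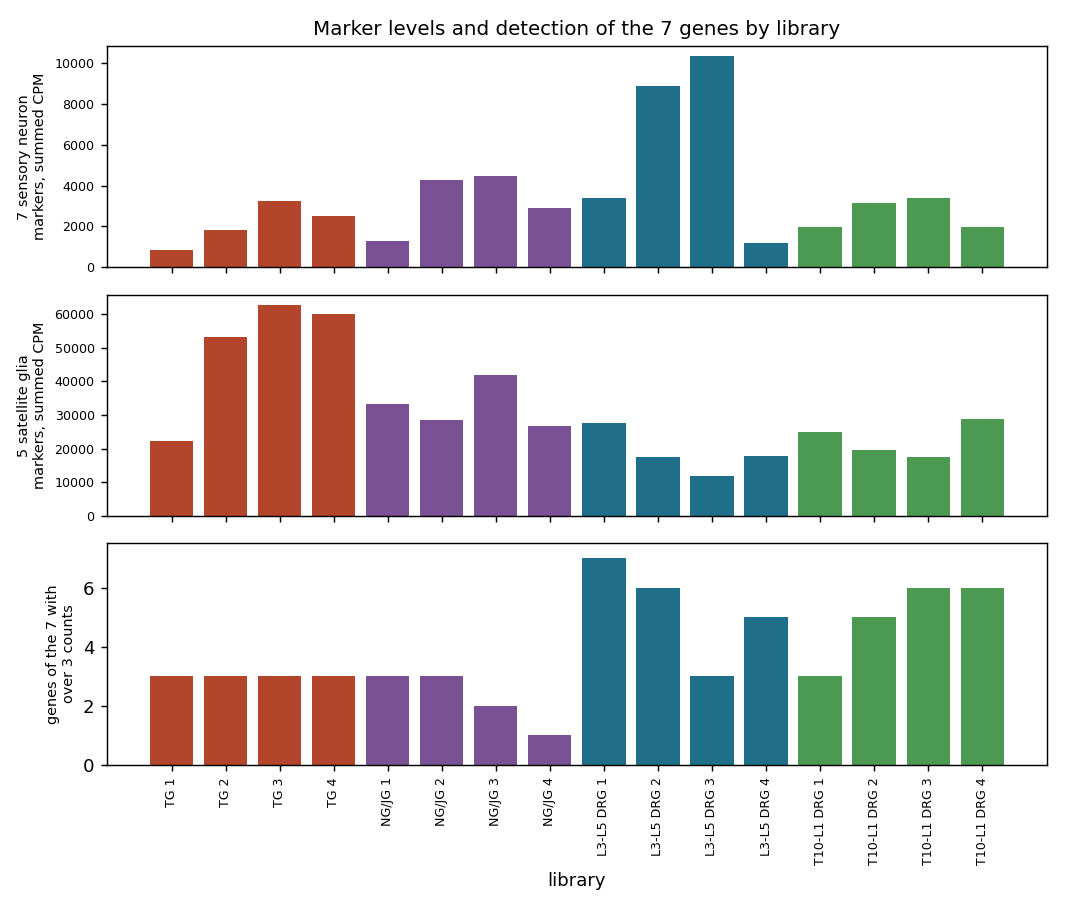
Summed CPM of 7 sensory neuron markers (top) and of 5 satellite glia markers (middle), and the number of the 7 itch genes with over 3 reads (bottom), for each library. TG library 1 has the lowest neuron marker sum (833 CPM), TG libraries 2 to 4 have the highest glial sums (53152 to 62578 CPM), and the number of genes seen is 1 to 3 in TG and NG/JG libraries and 3 to 7 in DRG libraries.

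The number of itch genes above 3 reads did not follow the level of neuron markers within the DRG. L3-L5 DRG library 3 had the highest neuron marker sum of all (10315 CPM) and 3 of the 7 genes, while L3-L5 DRG library 4 had 1176 CPM and 5 genes. Markers of mast cells and macrophages differed between libraries too. Both cell types release ligands of these receptors. The mast cell marker *Kit* was present throughout, but the other 5 mast cell markers had no read in any NG/JG library. Only 1 of the 6 mast cell markers exceeded 3 reads also in TG library 1, L3-L5 DRG libraries 1 and 3 and T10-L1 DRG libraries 2 and 3. A single marker does not show that mast cells were present in these libraries. The 6 macrophage markers summed to between 11.7 CPM in NG/JG library 3 and 10045 CPM in T10-L1 DRG library 4. The part of these cells in the levels of the 7 genes was not tested.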

How the data were processed

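RNA was measured by SMART-seq2 in 16 libraries of sorted *Pirt*/TdTomato+ neurons, 4 per ganglion, grouped by the tissue labels. The authors ran bcl2fastq (the paper names CASAVA for demultiplexing), TopHat2 against mm9 and HTSeq. They deposited raw counts per gene symbol without normalization. The annotation, strand setting and versions are not given in the sources used here. Lines of reads not assigned to a gene were kept out of totals and tests (29.6% to 66.6% of uniquely aligned reads had no gene).

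CPM used reads on genes (4735624 to 13333318 per library), and RPKM the merged exons of GENCODE release 1 on NCBIM37. Each pair of ganglia was fitted on its own 8 libraries, and all 16 for any difference, with edgeR 4.0.16 (TMM, filterByExpr, quasi-likelihood test, Benjamini-Hochberg adjustment over all genes tested) in R 4.3.3. Genes under the filter were described by values and by bounds against 3 reads. On simulated counts with 200 genes changed 8-fold, the test found 111 of them among 114 calls between the DRG groups (13550 genes), 36 among 40 for TG against NG/JG (11769 genes) and 83 among 84 over the 4 ganglia (14236 genes). Correlations used log2(CPM + 1) with exact permutation within ganglia (Python 3.11.15, scipy 1.17.1, numpy 2.4.6, pandas 2.3.3, matplotlib 3.10.9).

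The members and lists were chosen with earlier results of these data known. Named genes were the 7 members, a fixed set of 19 pathway genes, up to 3 genes per pathway list with an adjusted p under 0.05 and the smallest p over the 4 ganglia, and the 3 genes most like each member tested over 16 libraries. Alternatives were DESeq2 1.42.0, RLE factors, no filter, a replicate block, one fit of 16 libraries, each library left out, a pseudocount of 0.1 and TMM-scaled CPM; scaling to 7 sensory neuron markers, and ratios of sparse genes without the library with the most reads, were chosen after seeing the data. Protein sequences were not used here.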

Additional observations from a re-analysis of the deposited data

Results flagged for a closer look

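In 25 of the 28 combinations of gene and ganglion with any read, the 4 libraries were tested for a single library far from the other 3 by Dixon's ratio of gap to range. There were 8 such libraries. Chance gives about 1 in 20 groups for normally distributed values, but in sparse counts, where 3 libraries are at 0, any read in the other library passes, as in 3 of the 8. For *Osmr*, TG library 1 had 105 CPM against 6.36 to 9.31 CPM in the other 3, and T10-L1 DRG library 3 had 269 CPM against 72.3 to 101 CPM. For *Il31ra*, TG library 1 had 25.6 CPM against 0 to 1.93 CPM. *Cysltr2* had 25.4 CPM in NG/JG library 2, with at most 0.139 CPM in the others. *Hrh1* had 13.2 CPM in T10-L1 DRG library 2, with at most 0.375 CPM in the others, and 1.67 CPM (12 reads) in NG/JG library 1, with none in the others. The remaining libraries had 1 to 3 reads where the others had none: *Nppb* in TG library 2 (0.590 CPM) and *Cysltr2* in TG library 4 (0.176 CPM). In TG both abundant cases were library 1, which also had the lowest sum of sensory neuron markers. What set these libraries apart was not tested.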

How the results depend on the processing

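The number of the 7 genes called was 0 in every comparison without a filter on low counts, with DESeq2, with RLE factors, with the replicate block, in one fit of 16 libraries and with scaling to sensory neuron markers. Leaving out single libraries gave 0 to 1 for TG against L3–L5 DRG, for TG against T10-L1 DRG and for the 4 ganglia, the 1 being *Osmr* without TG library 1 (edgeR adjusted p = 0.0188 over the 4 ganglia). That library had the highest *Osmr* value of TG. The 5 pathway genes called over the 4 ganglia became 15 with DESeq2, 1 with the replicate block and 0 with neuron marker scaling. They became 0 to 9 with single libraries left out. Over all tested genes, 429 calls became 1667, 184 and 14 in the same order, and 33 to 1035 with single libraries left out. Apart from the construction of these settings, the cause was not tested. No pair of members passed under any alternative.

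Signs of uncalled log2 fold changes turned as follows. Scaling to neuron markers gave 0.06 for *Osmr* in TG over NG/JG, 2.51 for *Il31ra* in TG over L3–L5 DRG, and, for L3–L5 over T10-L1 DRG, -0.08 for *Il31ra*, -0.15 for *Osmr* and -1.18 for *Lpar3*. The replicate block gave -2.07 for *Il31ra* in TG over T10-L1 DRG and -0.11 for *Lpar3* in L3–L5 over T10-L1 DRG. Leaving out single libraries gave -0.12 to 1.61 for *Lpar3* in TG over NG/JG, -3.66 to 0.59 and -2.16 to 1.60 for *Il31ra* in TG over L3–L5 and T10-L1 DRG, and -0.16 to 0.68 and -0.19 to 0.69 for *Osmr* and *Lpar3* in L3–L5 over T10-L1 DRG.

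Correlations between the deviations of same-numbered libraries lay between -0.12 and 0.18, and no comparison had all 4 pairs over 0.1. Between the DRG groups 3 of 4 pairs were over 0.1, against 0 to 2 elsewhere. In TG against T10-L1 DRG and NG/JG against L3–L5 DRG, 6 of 8 libraries were most like their own number, against 1 to 3 elsewhere. The main fits did not take the numbers as pairs, but shared origin was not excluded. With the replicate block, genes called in TG against T10-L1 DRG fell from 758 to 0. With 4 libraries per ganglion and at most 43 reads on *Nppb* or 32 on *Sst*, a library without reads does not show that the transcript was absent. Such zeros did not simply follow depth. *Sst* had none in L3-L5 DRG libraries 2 and 3 (10075720 and 12136228 reads on genes), but 6 reads in library 4 (4735624).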
